A study of Mus musculus with 4 samples.

Results

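Myc, Batf, Irf4, Egr2, Egr3, Il4i1, Ebi3 and Basp1 were followed through the germinal center (GC) B cells of 4 mouse spleens. These 8 genes, out of 31053 in the count matrices, were picked by name as Myc and factors linked to the selection of GC B cells. Their levels were read in each annotated GC stage, along a pseudotime and across genotypes. In all 4 libraries Il4i1 and Myc were higher in light zone centrocytes than in dark zone centroblasts, whereas Basp1 marked every GC stage and was nearly absent from cells annotated as prememory.

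The cells were splenic B220+IgD- cells sorted 10 days after the mice received sheep red blood cells, an antigen that makes GCs form. Every mouse carried the Cre allele Cg1Cre+/-, which is active in B cells that transcribe the Ighg1 locus, so cells that never did so keep their floxed alleles. Beside it, the WT mouse had no floxed allele, the C mouse had Crebbp fl/+, the K mouse had Kmt2d fl/+ and the CK mouse had both floxed alleles. Per the study's methods the mice were sex- and age-matched littermates, and each genotype is 1 mouse and 1 library. No difference between genotypes given here therefore has a replicate check, and no test was run. Intervals are given at 95% and reflect counting error alone.

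GC B cells cycle between a dark zone, where centroblasts divide and mutate their receptors, and a light zone, where centrocytes take up antigen and compete for help from T cells. Positively selected centrocytes briefly switch on Myc, which commits them to growth and to a return to the dark zone, while other cells leave as memory precursors or plasma cells. Signals from the B cell receptor and from CD40 and cytokine receptors act together on this step, and Batf, Irf4, Egr2 and Egr3 are among the transcription factors that they induce.

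Levels are given as CPM, the UMIs (unique molecular identifiers, each 1 captured transcript) of a gene in every 1000000 UMIs of the same cells. Library totals ran from 33270825 to 39803865 UMIs, and the deposited annotation covered 1227 cells of WT, 2041 of C, 2583 of K and 3953 of CK. The median depth of annotated cells ran from 3653 UMIs in CK to 4931 in WT. Of all distinct barcodes 0.368% occurred in more than 1 library. The annotation holds 2 cells with 2500 or more detected genes, and cells of GC type above that limit made up 42.5% of GC cells in WT, 25.3% (C), 24.1% (K) and 15.1% (CK).

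The stage names were checked against their markers. A list of 8 GC B cell markers, among them S1pr2, summed to between 1691 and 2572 CPM in the 5 stages other than prememory. In cells annotated as prememory it summed to 142 to 233 CPM, while T-like cells held 113 to 145 CPM. The 8 prememory markers summed to 852 to 897 CPM there and to at most 347 CPM in the other stages. B-marker cells outside the annotation, selected here for B markers and no UMI of the GC markers, held 2064 to 2398 CPM of the same list and T-like cells 1519 to 1857, so that list does not mark B cells alone. The 8 centrocyte markers were at 1751 to 2294 CPM in prememory cells. The cells called prememory below are thus cells of that annotation in which GC markers were close to the level of T-like cells. Markers of T cells summed to at most 54.1 CPM in any annotated stage, against 5171 or more in T-like cells.

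Myc (ENSMUSG00000022346, chr15:61985391-61990374 on the plus strand of GRCm38) encodes the transcription factor that drives ribosome production, metabolism and entry into the cell cycle. It was sparse, with 104 UMIs over all annotated cells of WT, 126 (C), 181 (K) and 190 (CK). Centroblasts were at 5.20 CPM (WT), 5.29 (C), 4.83 (K) and 3.61 (CK). Centrocytes were at 18.6 CPM (WT, 34 UMIs in 22 of 382 cells), 16.5 (C, 31 UMIs in 22 of 515 cells), 36.8 (K, 92 UMIs in 49 of 611 cells) and 27.0 (CK, 73 UMIs in 53 of 936 cells). Centrocytes were thus above centroblasts in 4 of 4 libraries, by 3.58-fold (WT, interval 1.39 to 11.7), 3.11-fold (C, 1.52 to 6.86), 7.61-fold (K, 4.50 to 13.6) and 7.47-fold (CK, 4.36 to 13.5).

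The highest Myc level in each library was in prememory cells, at 62.5 CPM (WT), 83.6 (C), 40.5 (K) and 60.1 (CK). The intervals of prememory cells and centrocytes overlapped in K and were apart in the other 3 libraries. Early centroblasts, the annotated stage taken to enter the dark zone, held 38.3 CPM (WT, 9 UMIs in 38 cells), 15.9 (C), 19.5 (K) and 13.8 (CK). Early centroblasts exceeded centroblasts in 4 of 4 libraries, by 7.36-fold (WT, 2.22 to 28.0), 3.01-fold (C, 1.14 to 7.80), 4.03-fold (K, 2.06 to 8.03) and 3.81-fold (CK, 1.96 to 7.56). Recycling cells had 2 Myc UMIs in WT, 0 (C), 1 (K) and 6 (CK), in 8, 10, 15 and 49 cells. At that depth no order against the other stages could be read, and the 0 of 10 cells in C, at 3 counts of the total, allows up to 30.0% of cells with a Myc UMI.

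The cells above the gene limit changed this picture for centrocytes. Of the 51 WT cells above it whose nearest annotated cells were centrocytes, 33.3% held a Myc UMI, at 115 CPM, against 5.76% of annotated WT centrocytes. Over all GC cells, 67.0% of the Myc UMIs of WT lay above the limit, compared with 55.9% (C), 47.1% (K) and 36.5% (CK). The share of all UMIs above the limit was similar, at 65.3%, 48.4%, 45.4% and 33.5% in the same order. When cells were thinned to 2000 UMIs, Myc was seen in 2.70% of centrocytes in WT (interval 1.30 to 4.91), 2.29% in C (1.15 to 4.05), 4.78% in K (3.20 to 6.83) and in 31 of 775 CK cells (2.73% to 5.63%). Thinning left out 12, 34, 25 and 161 shallower cells, and the unthinned shares were 5.76%, 4.27%, 8.02% and 5.66%. T-like cells, which can transcribe Myc themselves, held it in 7.15% to 8.31% of thinned cells, so they give no background level for this gene.

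Batf (ENSMUSG00000034266, chr12:85686669-85709087, plus strand) encodes a basic leucine zipper factor that pairs with Jun proteins and binds with Irf4. Centrocytes held 20.2 CPM (WT, 37 UMIs), 30.8 (C, 58 UMIs), 58.7 (K, 147 UMIs) and 38.4 (CK, 104 UMIs). All 3 mutant libraries were above WT, and the intervals of K (49.6 to 69.0) and CK (31.4 to 46.5) lay above that of WT (14.2 to 27.9). Single cells weighed on these sums, as the highest cell gave 4 UMIs in WT, 9 (C), 14 (K) and 11 (CK). Cells with 3 or more Batf UMIs numbered 2 (WT), 4 (C), 12 (K) and 7 (CK), and the share of thinned centrocytes with a Batf UMI was 3.24% (WT, 1.69 to 5.60), 4.37% (C), 6.48% (K, 4.63 to 8.79) and 5.16% (CK). Unthinned, those shares were 7.33%, 6.80%, 11.6% and 7.26%. T-like cells, which also transcribe Batf, held it in 6.73% to 10.7% of thinned cells.

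In recycling cells Batf reached 241 CPM (C, 15 UMIs in 4 of 10 cells), 99.5 (K, 11 UMIs in 4 of 15 cells) and 91.3 (CK, 26 UMIs in 8 of 49 cells), while WT had 0 UMIs in 8 cells. These were the highest Batf levels among the stages of the 3 mutant libraries, although in CK 17 of the 26 UMIs came from 1 cell and in K 7 of 11. In the remaining stages Batf ran between 6.77 and 63.8 CPM.

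Irf4 (ENSMUSG00000021356, chr13:30749226-30766976, plus strand) encodes an interferon regulatory factor required for class switching and plasma cell formation. Prememory cells held the most in every library, at 34.1 CPM (WT), 47.1 (C), 47.3 (K) and 52.5 (CK). In centrocytes it stood at 12.6 CPM (WT, 23 UMIs), 3.19 (C, 6 UMIs), 6.39 (K, 16 UMIs) and 8.12 (CK, 22 UMIs). Prememory cells exceeded centrocytes by 2.71-fold (WT, 1.38 to 5.25), 14.8-fold (C, 6.08 to 43.4), 7.40-fold (K, 3.35 to 16.2) and 6.47-fold (CK, 3.06 to 13.2). Centrocytes over centroblasts, by comparison, gave log2 ratios of 1.60 (WT, 0.05 to 3.59), -0.73 (C, -2.45 to 0.83), 0.49 (K, -0.60 to 1.59) and 0.67 (CK, -0.23 to 1.57). The interval left out 0 in WT alone.

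Egr2 (ENSMUSG00000037868, chr10:67535475-67542188, plus strand) and Egr3 (ENSMUSG00000033730, chr14:70077203-70082614, plus strand) encode zinc finger factors made within minutes of receptor triggering. Centrocytes and prememory cells held most of their UMIs. Egr2 had 15 UMIs in centrocytes of WT, 13 (C), 26 (K) and 42 (CK), or 8.20, 6.90, 10.4 and 15.5 CPM. Centroblasts had 0 Egr2 UMIs in WT, 1 (C), 5 (K) and 3 (CK). Egr3 was at 16.4 CPM in centrocytes of WT, 13.8 (C), 22.4 (K) and 22.2 (CK), with at most 2.08 CPM in the centroblasts of any library. In prememory cells Egr3 reached 70.0 CPM (WT), 76.0 (C), 50.7 (K) and 86.3 (CK), the highest of the 6 stages in each library. It was above centrocytes by 4.27-fold (WT, 2.57 to 7.16), 5.51-fold (C, 3.36 to 9.22), 2.27-fold (K, 1.19 to 4.06) and 3.90-fold (CK, 2.30 to 6.40). Egr2 did not separate those stages, with overlapping intervals in 4 of 4 libraries.

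Upstream sequence is shown for Egr2, an immediate early gene whose regulation by serum response and cyclic AMP response elements is well known. The 250 bases before a RefSeq start of Egr2 in GRCm38.p6, chr10:67537619-67537868 on the plus strand, are printed 5′ to 3′. Egr2 had 5 windows, and the printed one was picked because it held the most motif matches. Its start lies inside the gene span given above, and the window that begins at 67535249 held an E-box match alone. Capitals mark a match to the CArG box (the site of serum response factor) and matches to TGACG, the core of the cyclic AMP response element, on either strand.
Egr2: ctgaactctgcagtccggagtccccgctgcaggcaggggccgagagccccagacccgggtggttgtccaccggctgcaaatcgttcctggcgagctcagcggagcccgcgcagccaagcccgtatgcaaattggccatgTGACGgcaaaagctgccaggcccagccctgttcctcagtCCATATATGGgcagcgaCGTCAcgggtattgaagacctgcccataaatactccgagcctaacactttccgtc
The CArG match began at position -72 from the start and the TGACG matches at -111 and -55, without overlap. Among all 32851 upstream windows of this length, 1.47% held a CArG match and 17.8% a TGACG match. These are shares of single windows, so they are no measure for a window picked by its matches. Of the 8 genes, 6 had windows in the table and Myc and Egr3 had none. AP-1 (TGANTCA, bound by Batf with Jun proteins), the Egr site (GCGNGGGCG), the spaced palindrome bound by Stat6 and the composite site of Ets and Irf factors matched none of the windows of these 6 genes, against 6.75%, 4.70%, 5.85% and 2.30% of all windows. The E-box CACGTG, bound by Myc, matched 1 of the 5 Egr2 windows and none of the other genes, against 6.02% of all windows.

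Il4i1 (ENSMUSG00000074141, chr7:44816387-44840809, plus strand) encodes a secreted L-amino acid oxidase that B cells make after CD40 and interleukin 4 signals. It was far higher in centrocytes than in centroblasts in each library. Centroblasts held 11.4 CPM (WT, 11 UMIs), 28.4 (C), 23.0 (K) and 21.9 (CK). Centrocytes held 405 CPM (WT, interval 376 to 435), 518 (C, 486 to 551), 421 (K, 396 to 447) and 458 (CK, 433 to 484). The resulting folds were 35.4 (WT, 19.7 to 71.3), 18.2 (C, 14.0 to 24.1), 18.3 (K, 14.6 to 23.2) and 21.0 (CK, 17.1 to 25.9). Of thinned centrocytes, 34.9% (WT), 39.7% (C), 35.7% (K) and 35.2% (CK) held an Il4i1 UMI, against 0.318% to 0.602% of T-like cells thinned alike. Unthinned shares were 55.2%, 51.8%, 48.6% and 40.9% in centrocytes, with median depths of 4741, 3498, 3811 and 2670 UMIs, so the order of the unthinned shares followed depth in part and went against the CPM. In T-like cells the unthinned shares were 0.954%, 0.739%, 0.537% and 0.627%, at median depths of 3238, 2392, 2762 and 1989 UMIs.

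Il4i1 also differed between genotypes outside centrocytes. Prememory cells held 460 CPM (WT, 404 to 522), 630 (C, 570 to 693), 906 (K, 800 to 1021) and 773 (CK, 671 to 886). The transitioning cells between centroblasts and centrocytes held 37.1 CPM (WT, 29.9 to 45.6), 37.2 (C) and 21.8 (CK, 18.1 to 25.9), and those of K lay between 20.9 and 29.8 CPM on 127 UMIs. At 2000 UMIs per cell the prememory values were 493 CPM (WT, 413 to 583), 594 (C, 515 to 681), 803 (K, 667 to 958) and 509 (CK, 385 to 659), with 59 of 115 cells left out in CK. Prememory cells of K were thus above WT in both forms, while the intervals of C and CK overlapped that of WT after thinning. Transitioning cells were lower in K and CK with intervals apart from WT in both. In prememory cells of K, 39 of the 268 Il4i1 UMIs came from 1 cell. The share of prememory cells with an Il4i1 UMI was not higher in K, at 52.4% (WT), 52.4% (C), 47.3% (K) and 51.3% (CK). The order in transitioning cells turned above the gene limit, where 259 WT cells held 20.3 CPM, 122 of C 38.6, 165 of K 31.7 and 93 of CK 45.4. The Il4i1 gene overlaps Nup62 on the same strand, whose reads an annotation can share with it, and Atf5 and Tbc1d17 on the other strand.

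Ebi3 (ENSMUSG00000003206, chr17:55952640-55957022, plus strand) encodes the shared beta chain of the cytokines interleukin 27 and interleukin 35. It was sparse, with 44 UMIs in WT, 56 (C), 44 (K) and 41 (CK). Centrocytes held 12.6 CPM (WT, 7.97 to 18.9), 8.49 (C, 4.85 to 13.8), 8.39 (K, 5.19 to 12.8) and 5.17 (CK, 2.83 to 8.67). The level was lower than WT in the 3 mutant libraries, and the share of thinned centrocytes with an Ebi3 UMI was 2.97% (WT, 1.49 to 5.26), 1.87% (C), 1.02% (K) and 0.903% (CK, 0.364 to 1.85). T-like cells thinned alike held it in 0.978% to 1.25%. Cd8-positive T-like cells held it in 0.111% to 0.260% of unthinned cells. Unthinned, the shares were 5.24%, 2.91%, 3.27% and 1.28% in centrocytes and 1.67%, 1.60%, 1.48% and 0.849% in T-like cells. An antisense gene, Gm16712, overlaps Ebi3 on the other strand.

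Ebi3 is a known NF-kB target, and its upstream window is shown for that reason, with capitals marking a match to the kappa B site. It covers 250 bases of GRCm38.p6, chr17:55952373-55952622 on the plus strand.
Ebi3: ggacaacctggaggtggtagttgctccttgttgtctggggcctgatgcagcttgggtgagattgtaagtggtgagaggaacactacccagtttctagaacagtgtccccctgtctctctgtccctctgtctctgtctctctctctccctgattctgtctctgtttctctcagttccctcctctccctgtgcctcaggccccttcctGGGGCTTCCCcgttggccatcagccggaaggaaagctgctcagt
The match began at position -44 from the start, and 3.90% of all windows held one.

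Basp1 (ENSMUSG00000045763, chr15:25363277-25413764, minus strand) encodes a myristoylated protein of the inner plasma membrane that can also act as a corepressor in the nucleus. Its pattern differed from that of the other members. It ran from 584 to 1041 CPM in the 5 GC stages and stood at 51.1 CPM in prememory cells of WT (27 UMIs), 31.9 (C), 27.0 (K) and 45.0 (CK). T-like cells held 21.8 to 37.0 CPM and the B-marker cells outside the annotation 34.5 to 52.5 CPM, so the prememory level was that of cells without GC markers. Prememory cells reached 0.0539 times the centrocyte level in WT (0.0354 to 0.0786), 0.0325 (C), 0.0358 (K) and 0.0552 (CK).

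Within the annotated GC cells the gradient of Basp1 between zones differed by genotype. Centroblasts were at 584 CPM (WT, 537 to 634), 709 (C, 673 to 746), 681 (K, 654 to 709) and 733 (CK, 708 to 758). Centrocytes were at 949 CPM (WT, 905 to 995), 984 (C), 754 (K, 721 to 789) and 816 (CK, 782 to 851). The excess of centrocytes over centroblasts was 1.63-fold (WT, 1.48 to 1.79), 1.39-fold (C, 1.30 to 1.49), 1.11-fold (K, 1.04 to 1.18) and 1.11-fold (CK, 1.06 to 1.18). The gradient between zones of annotated cells was thus smaller in K and CK than in WT and C, with intervals apart. Cells above the gene limit had another order of Basp1 levels among centroblasts, and their centrocyte levels are given here for WT and C alone. Those nearest to centroblasts numbered 466 in WT, more than the 183 annotated, and held 738 CPM of Basp1, against 706 CPM in C, 582 in K and 602 for CK, so that WT was the highest there and the lowest among annotated centroblasts. Above the limit, centrocytes of WT held 906 CPM and those of C 705. In C they were thus no higher than the centroblasts there, at 706 CPM, while in WT they were above the 738 CPM of centroblasts. The grouping of WT and C against K and CK is therefore not shown for those cells. Among annotated cells early centroblasts were ordered from WT to CK, at 1041 CPM (WT), 1004 (C), 889 (K) and 745 (CK).

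The upstream window of Basp1 is shown because its profile differed from all others. The 250 bases of GRCm38.p6, chr15:25413765-25414014 on the minus strand, are printed 5′ to 3′, with capitals for the TGACG match and for 2 overlapping matches to the kappa B site.
Basp1: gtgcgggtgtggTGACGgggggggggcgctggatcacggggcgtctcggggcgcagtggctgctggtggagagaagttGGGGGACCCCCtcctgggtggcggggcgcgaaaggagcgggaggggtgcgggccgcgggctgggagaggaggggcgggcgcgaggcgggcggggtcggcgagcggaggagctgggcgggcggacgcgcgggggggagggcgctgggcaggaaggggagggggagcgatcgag
The TGACG match began at position -238 and the kappa B matches, on opposite strands, at -172 and -171. Of the windows of Batf, Irf4 and Il4i1, that of Batf held a TGACG match and the others held none of the 8 motifs searched.

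**Figure D1:**
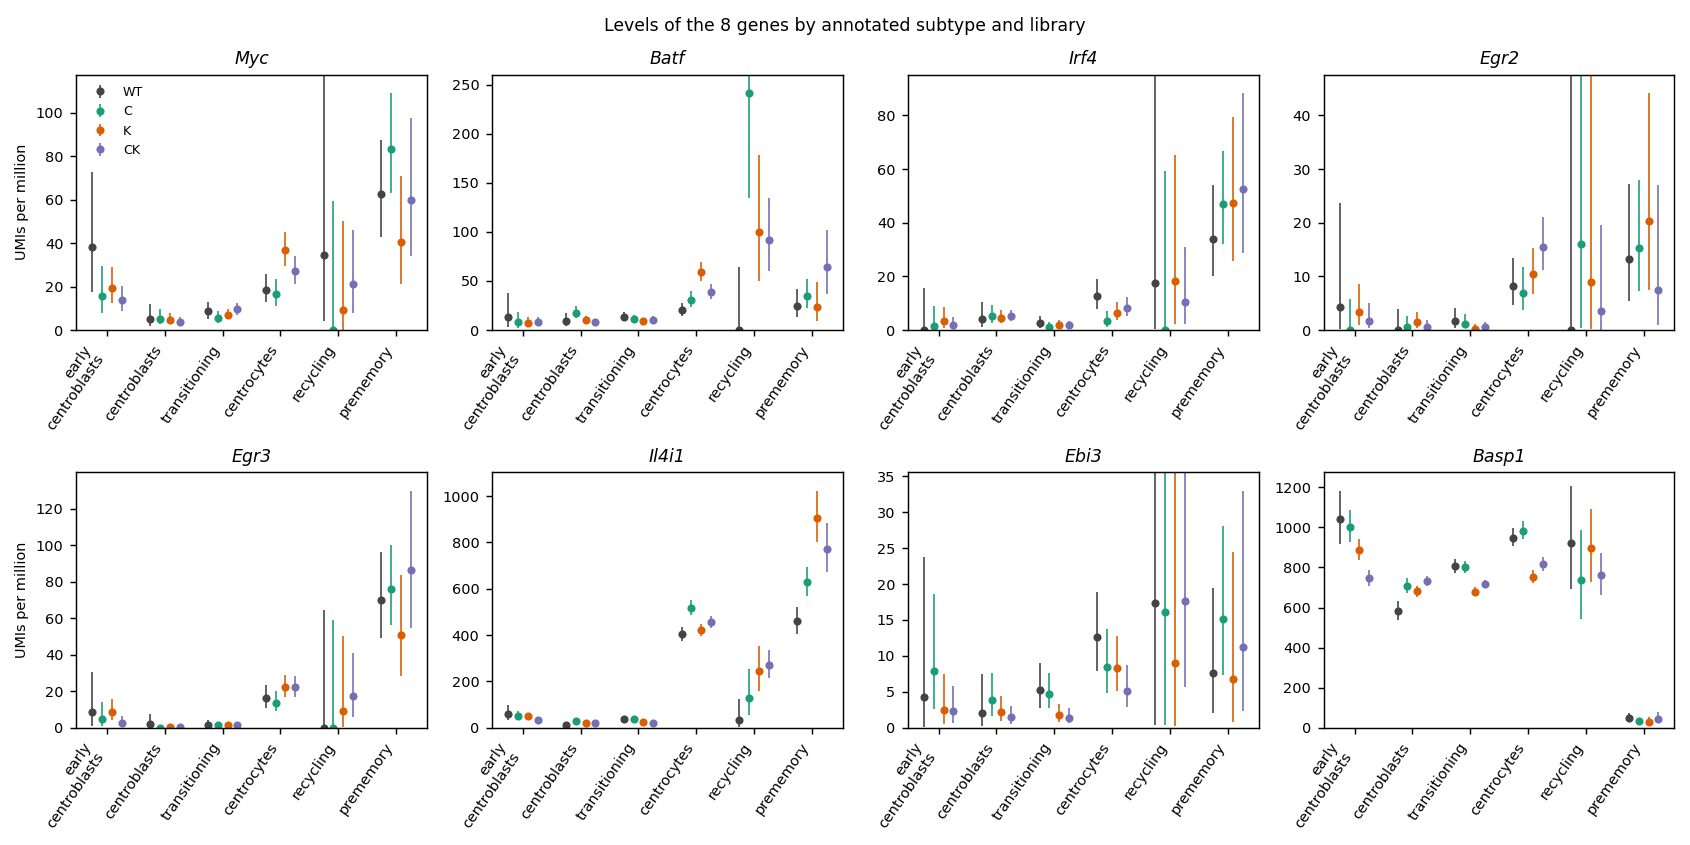
CPM (linear axis from 0) of each of the 8 genes in the 6 annotated stages, with 1 point per library and 95% Poisson intervals; intervals of the few recycling cells run past the top of some panels. Myc, Irf4, Egr3 and Il4i1 peak in prememory cells in every library, Basp1 is at 584 or more in the 5 GC stages and at most 51.1 in prememory cells, and Batf peaks in recycling cells of C, K and CK.

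The deposited pseudotime orders GC cells from the dark zone to the light zone and to GC exit. It was cut into 5 bins with equal numbers of WT cells, and mutant cells were placed by the WT cells before them. Centroblasts were the most frequent stage in the first bin (45.1% to 49.5% of cells), and the last bin held centrocytes, at 49.4% (WT), 52.5% (C), 71.9% (K) and 75.2% (CK), and prememory cells, at 47.8%, 39.9%, 18.8% and 12.7%. Il4i1 was higher in each successive bin in 4 of 4 libraries, from 34.0 to 498 CPM (WT), 42.6 to 471 (C), 40.4 to 529 (K) and 30.8 to 432 (CK). In the fourth bin it was at 299 CPM (WT) and 335 (C), but 187 (K) and 240.5 (CK).

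Egr3 went from 3.99 CPM in the first bin to 44.8 in the last in WT, from 1.18 to 39.8 (C), from 2.90 to 25.1 (K) and from 2.53 to 29.8 (CK). In WT, C and CK most of that change fell in the last bin. Myc in WT was at 14.0 CPM in the first bin (8.65 to 21.4), 6.80 in the second (3.11 to 12.9) and 33.9 in the last. In the last bin it was at 34.1 CPM (C), 29.3 (K) and 21.2 (CK). Batf differed from these genes, because in CK its highest bin was the second (33.7 CPM, 81 UMIs) and in C also the second (27.2 CPM). In CK 17 of those 81 UMIs came from 1 cell. The share of CK cells with a Batf UMI was 5.71% in the second bin and 6.07% in the third. With bins cut on the CK cells themselves, the third was highest (33.0 CPM). The share in C was highest in the second bin, at 8.64%. In WT Batf was at 7.32 CPM in the first bin and 24.0 in the last. Basp1 stayed between 643 and 872 CPM in the first 4 bins and was at 371 CPM in the last bin in WT, 488 (C), 467 (K) and 581 (CK).

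**Figure D2:**
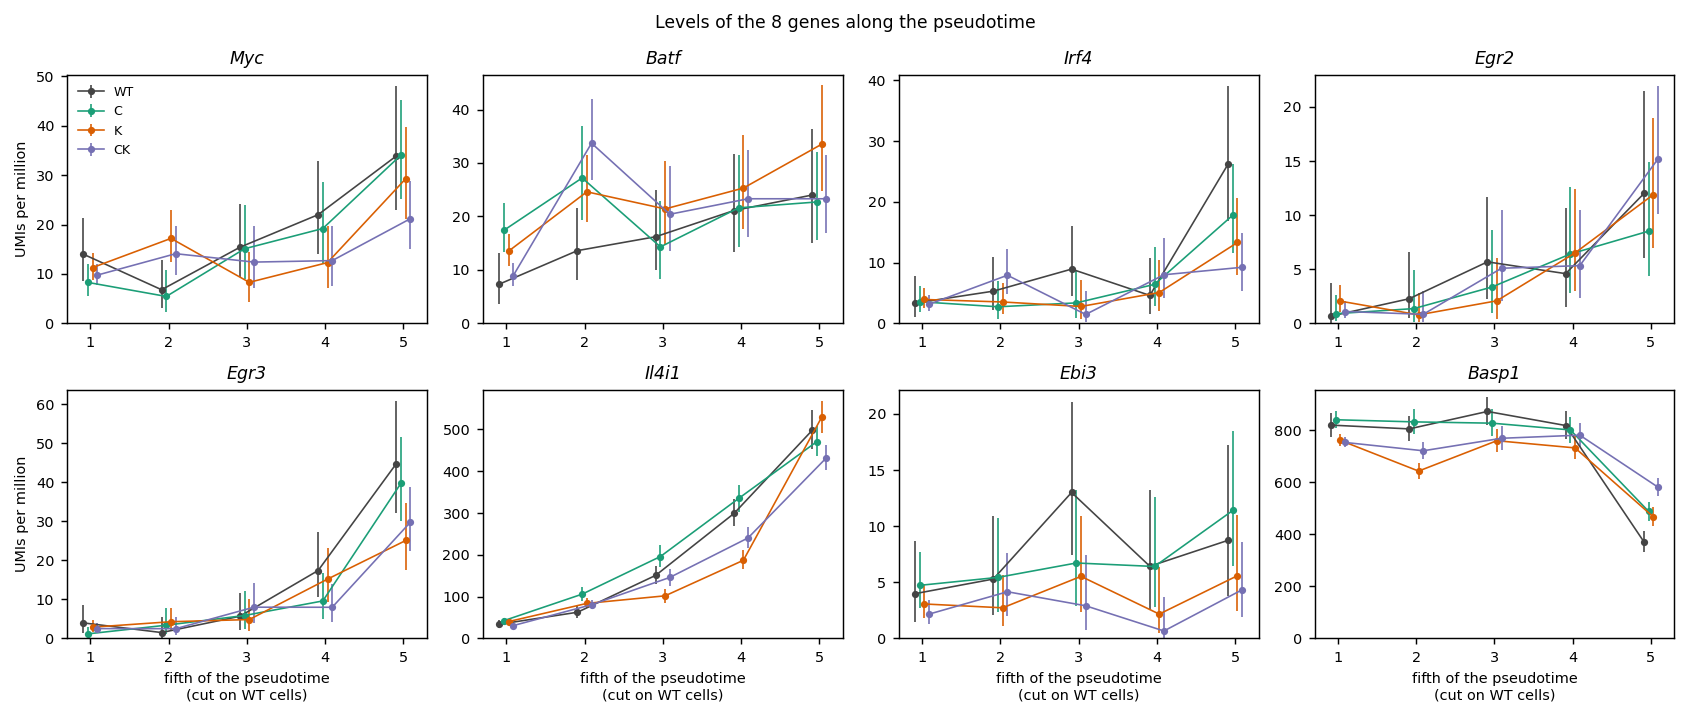
CPM of the 8 genes in 5 bins of the pseudotime (x axis, 1 to 5), each with the same number of WT cells, with 1 line per library and 95% Poisson intervals. Il4i1 climbs from 30.8 to 42.6 in the first bin to 432 to 529 in the last, Egr3 is highest in the last bin in each library, and Basp1 is lowest in the last bin.

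Genotypes were then compared within centrocytes, the stage in which selection takes place, for genes with 20 or more UMIs over both libraries, and a gene was called at a 1.5-fold difference. All 8 genes passed that minimum in each comparison. In C over WT, 1 of the 8 was called higher (Batf) and 1 lower (Irf4), with 5.71% of 8161 genes called higher and 5.82% lower. In K over WT, Myc and Batf were called higher and Irf4 lower, against 4.60% and 22.6% of 8302 genes. In CK over WT, Batf and Egr2 were called higher and Irf4 and Ebi3 lower, against 7.17% and 5.66% of 8530 genes. The median log2 ratio of the 8 genes was -0.21 (C), 0.20 (K) and 0.31 (CK), beside medians over all genes of 0.02, -0.14 and 0.04. In K the scale itself was shifted by that -0.14, and with median-ratio scaling 30.4% of the called genes were higher, as opposed to 16.9%, with the same 3 members called. Under that scaling Ebi3 was also called lower in C.

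Batf stood at a log2 ratio of 0.61 (C, -0.01 to 1.24), 1.54 (K, 1.01 to 2.10) and 0.92 (CK, 0.37 to 1.51). Relative to the median of all genes, K was at 1.68. Myc was at -0.18 (C, -0.93 to 0.57), 0.98 (K, 0.40 to 1.60) and 0.54 (CK, -0.07 to 1.17). Irf4 was lower in the 3 mutant libraries, at -1.98 (C, -3.57 to -0.64), -0.98 (K, -1.99 to 0.01) and -0.63 (CK, -1.54 to 0.28), and in 2 of the 3 its interval held 0. Ebi3 was at -0.57 (C, -1.58 to 0.42), -0.58 (K, -1.51 to 0.33) and -1.28 (CK, -2.35 to -0.26). Egr2 was at 0.92 in CK (0.04 to 1.88), and Egr3 stayed within counting error of 0 in each comparison. Il4i1 was 0.35 (C, 0.21 to 0.49), 0.06 (K) and 0.18 (CK, 0.05 to 0.31).

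The Myc differences, and those of Batf in K and CK, changed with the gene limit. When GC cells above the limit were added, Myc in C went from -0.18 to -0.69 (-1.21 to -0.19), in K from 0.98 to 0.11 (-0.29 to 0.52) and in CK from 0.54 to -0.46 (-0.91 to -0.02). Batf in K went from 1.54 to 0.67 (0.33 to 1.02) and in CK from 0.92 to -0.14 (-0.52 to 0.25), while in C it went from 0.61 to 0.64 (0.28 to 1.01). The lower values of Irf4 and Ebi3 did not turn with those cells, with Irf4 at -1.64 (C), -0.98 (K) and -0.90 (CK), and Ebi3 at -1.34 (CK, -2.29 to -0.44). The added cells carry labels taken from their 25 nearest cells, a procedure that gave annotated centrocytes their own label in 85.8% of cases. Egr2, with 15 UMIs in WT before thinning, was at 0.50 in CK (-0.25 to 1.28) with those cells added. After thinning Egr2 in CK was at 2.58, a value that rests on the 2 UMIs left in WT centrocytes. Among T-like cells Batf differed from WT by -0.49 (C, -0.76 to -0.22), 0.22 (K) and 0.00 (CK), Myc by -0.33 in CK (-0.62 to -0.05) and Basp1 by -0.53 in K (-0.92 to -0.16). Ebi3 in T-like cells of CK was also below WT, at -0.63 on 29 and 33 UMIs, with an interval that held 0 (-1.40 to 0.13).

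Over all annotated GC B cells the median of the members' ratios was lower in K and CK than within centrocytes. The median log2 ratio of the 8 genes was -0.21 (C), -0.45 (K) and -0.55 (CK), beside 0.01, -0.16 and -0.03 over all genes. In C none was called, with 4.95% of 10152 genes called higher and 3.94% lower. In K, Irf4, Egr3 and Ebi3 were called lower and none higher, against 23.6% and 5.07% of 10274 genes. In CK, Irf4, Egr3, Il4i1 and Ebi3 were called lower and none higher, against 9.03% and 8.65% of 10531 genes. With median-ratio scaling 31.7% of the genes called in K were higher, compared with 17.7%, and the same members were called in K and CK. When GC cells above the limit were included, Egr3 was at -0.56 in K and -0.47 in CK and Il4i1 at -0.14 in CK, short of 1.5-fold in each case.

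These whole-population ratios went with the makeup of the annotated cells. Prememory cells made up 11.8% of annotated cells in WT, 11.0% (C), 3.60% (K) and 2.91% (CK), and centrocytes 31.1%, 25.2%, 23.7% and 23.7%. These shares leave out the cells above the gene limit, which were 42.5% of GC cells in WT and 15.1% in CK. The makeup of all GC cells can therefore differ from them, and the part of the limit in these shares was not tested. With each stage weighted by its WT share, the median became -0.13 (C), -0.01 (K) and 0.05 (CK). Egr3 went from -0.86 to 0.13 in CK and from -0.77 to -0.10 in K. Il4i1 in CK went from -0.63 to 0.10. Ebi3 kept a 1.5-fold lower level at equal shares, at -0.78 in K and -1.11 in CK, the only member called lower in either, while Batf in K was called higher (0.70).

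**Figure D3:**
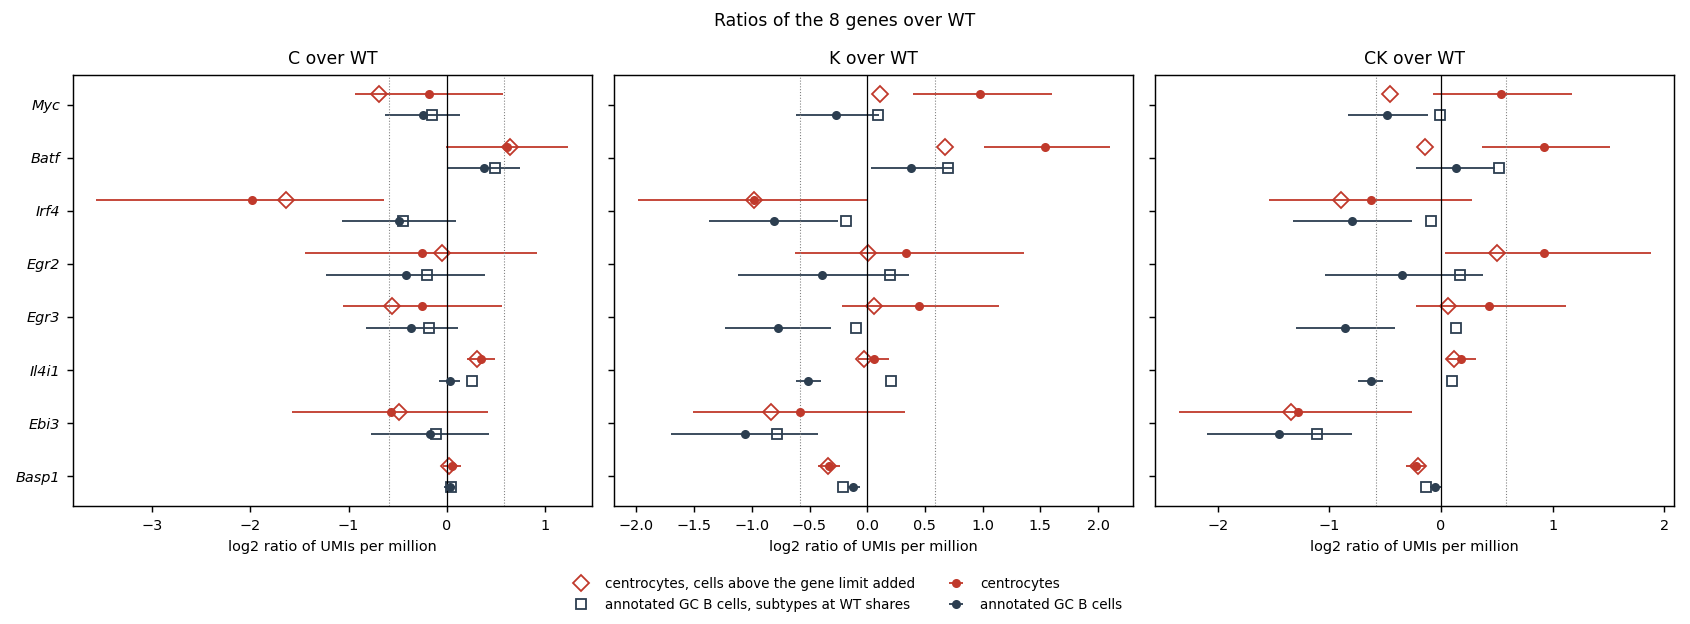
Log2 ratios of CPM over WT (x axis) for the 8 genes in C, K and CK, with filled points and 95% counting intervals for centrocytes (red) and for all annotated GC B cells (dark). Open diamonds give centrocytes after inclusion of cells above the limit, open squares the annotated cells with stages weighted by WT shares; dotted lines mark 1.5-fold. Myc and Batf in K and CK centrocytes move toward or past 0 with the added cells, and Ebi3 in CK stays below -1 in all 4 forms.

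Centrocytes with a Myc UMI were next set beside the other centrocytes of the same library, to see which members were found in the same cells. There were 22 such cells in WT, 22 (C), 49 (K) and 53 (CK). Egr3 was at 138 CPM in WT cells with Myc and 7.62 in those without, at 97.2 and 9.49 (C), 79.8 and 16.3 (K), and 87.5 and 16.8 (CK). The log2 ratio was 4.18 (WT, 3.05 to 5.34), 3.36 (C, 2.01 to 4.60), 2.29 (K, 1.41 to 3.12) and 2.38 (CK). Il4i1 was at 1204 against 348 CPM (WT), 1296 against 477 (C), 1155 against 344 (K) and 1206 against 397 (CK). Both genes were thus higher beside Myc in 4 of 4 libraries, with intervals that left out 0.

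Batf was higher beside Myc in C (205 against 21.8 CPM), K (277 against 35.8) and CK (160.5 against 28.4), and in WT the values were 40.7 and 18.8 CPM with an interval that held 0 (-0.60 to 2.49). In C the 19 Batf UMIs beside Myc came from 3 of 22 cells, or 13.6% (2.91 to 34.9), against 6.49% of cells without Myc. Irf4 was higher beside Myc in WT (65.1 against 8.79 CPM, log2 ratio 2.89, 1.44 to 4.22) and CK (38.9 against 5.59, 2.80, 1.34 to 4.15), on 8 UMIs in each group of cells with Myc. Egr2 was higher in K (2.08, 0.67 to 3.35) and CK (2.11, 0.97 to 3.14), while WT had 1 and C 0 Egr2 UMIs in cells with Myc. Ebi3 intervals held 0 in the 4 libraries. Basp1 was not higher in cells with Myc, with log2 ratios of -0.38 (WT, -0.70 to -0.08), -0.14 (C), -0.11 (K) and -0.04 (CK). Cells with Myc were deeper, at medians of 5934, 4008, 4820 and 3891 UMIs against 4700, 3472, 3784 and 2632. With cells thinned to 2000 UMIs before the split, Il4i1 remained higher, at 1.22 (WT, 0.42 to 1.93), 1.38 (C), 2.13 (K) and 1.33 (CK). Thinned values of Egr3 were 4.17 (WT), 3.42 (C), 1.99 (K) and 2.67 (CK), and in K the interval then held 0 (-0.01 to 3.57). Batf had 0 UMIs in the 10 thinned WT cells with Myc. Irf4 had 0 UMIs in the 31 thinned CK cells with Myc and 8 in the 744 without.

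The pathway lists were read in the same split. Of 6692 genes with enough UMIs in WT, 18.5% were at least 1.5-fold higher in cells with Myc, and the shares were 24.7% (C), 17.5% (K) and 17.5% (CK). The CD40 and NF-kB list had 11 of 13 measured genes higher in WT, 8 of 13 (C), 12 of 14 (K) and 11 of 15 (CK). Rel, Relb, Nfkbia, Nfkbie, Birc3 and Icam1, which encode NF-kB subunits, inhibitors and targets, were among them in all 4 libraries. The immediate early list had 7 of 7 genes higher in WT, 5 of 6 (C), 6 of 6 (K) and 5 of 6 (CK), with Egr1, Junb, Dusp2 and Cd69 in each. The list of the Myc network and biosynthesis targets had 3 of 19 (WT), 5 of 18 (C), 13 of 19 (K) and 7 of 20 (CK), and Nop56, a nucleolar protein of ribosome assembly, was the member present each time. Its median log2 ratio was 0.44 (WT), 0.25 (C), 0.75 (K) and 0.53 (CK), beside 0.02, 0.07, 0.02 and 0.02 over all genes. The list of cytokine receptors and Stat factors had 2 of 7 higher in WT, 2 of 7 (C), 2 of 7 (K) and 0 of 7 (CK). That of the partners and opposing factors of Batf and Irf4 had 1 of 7 in WT, which was Jund, and 0 of 7 in the others.

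The deposited cell table gives module scores, each an average over listed genes after subtraction of control genes. The light zone score had a median of 0.0689 in WT centrocytes with Myc and 0.0174 in those without (SD over cells 0.0587 and 0.0442), and the other libraries ordered alike, at 0.0602 and 0.0157 (C), 0.0692 and 0.00641 (K), and 0.0744 and 0.0114 (CK). A score for genes raised in GC B cells of a Myc reporter was at 0.0272 against -0.000754 (WT), 0.0112 against -0.00111 (C), 0.0540 against 0.00723 (K) and 0.0508 against 0.00512 (CK). Whether the gene list of either score holds any of the 8 genes is not given in the sources used here. A list that holds Myc would raise the score of cells with Myc by the split itself. By stage, the Myc reporter score was highest in recycling cells, with medians of 0.120 (WT), 0.134 (C), 0.144 (K) and 0.146 (CK). Prememory cells followed at 0.0900 to 0.101, then early centroblasts at 0.0588 to 0.0679, and centrocytes were at -0.000855 to 0.00921.

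**Figure D4:**
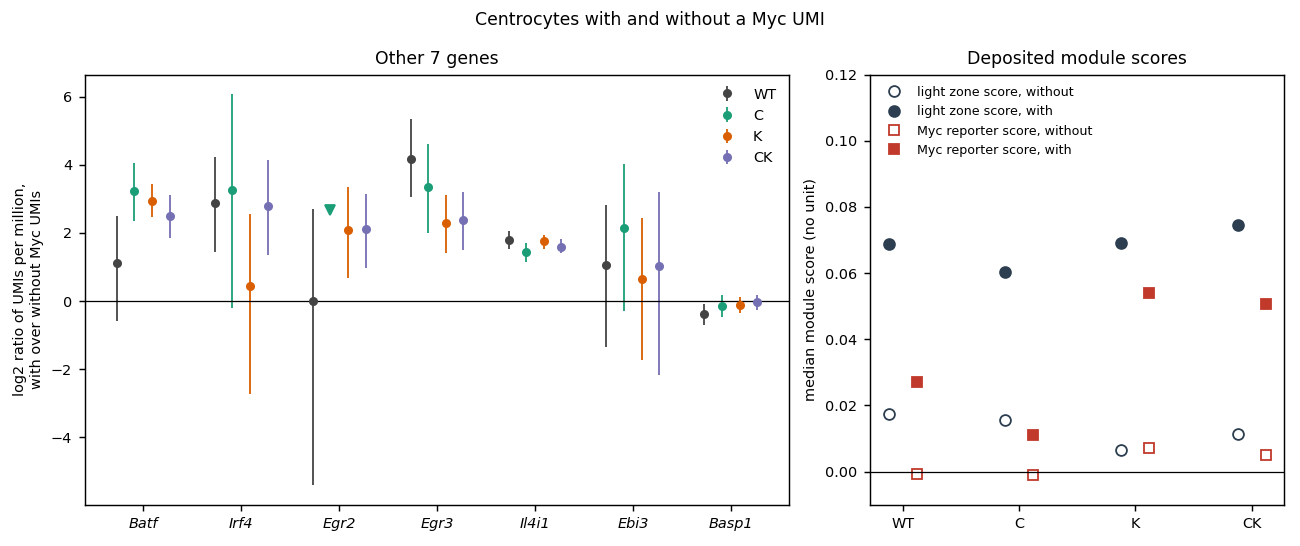
Left, log2 ratios of CPM in centrocytes with a Myc UMI over those without, for the other 7 genes and 1 point per library with 95% counting intervals; the triangle is the upper bound for Egr2 in C, where cells with Myc had 0 UMIs. Right, medians of the deposited light zone and Myc reporter scores (no unit) in the same cells, which are higher with Myc in all 4 libraries, as are Egr3 and Il4i1, whereas Basp1 is at or below 0.

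Pairs of members were counted in thinned centrocytes and set against the number that the product of their shares gives in each library. Summed over libraries, Myc and Egr3 were found together in 15 cells against 2.59 from the product, or 5.80 times as often (3.24 to 9.56), with the ratio above 1 in 4 of 4 libraries. Egr2 and Egr3 shared 8 cells against 1.35 (5.90 times, 2.55 to 11.6), and Myc and Batf 16 against 4.22 (3.79 times, 2.17 to 6.15). Of those last 2 pairs, the first exceeded 1 in 2 libraries and the second in 3. Il4i1 was found more often with Myc (1.77 times, 1.32 to 2.33), Egr2 (2.09 times) and Egr3 (1.84 times) in 4 of 4 libraries each. Myc and Irf4 shared 1 thinned cell against 0.858 (1.17 times, with an interval that held 1), and 13 against 3.23 before thinning (4.03 times, 2.15 to 6.89). Pairs with Basp1 lay between 0.900 and 1.17 times, and each interval held 1. Basp1 was common, seen in 66.7% (K) to 81.1% (C) of thinned centrocytes without Myc. The ratios of its pairs could therefore not lie far above 1. Pairs with Il4i1 have a ceiling too, so their ratios are not on the scale of the rarer pairs. Members were rare enough that, of the 6 genes other than Il4i1 and Basp1, 2 or more were seen in only 1.35% of thinned centrocytes of WT, 1.25% of C, 3.58% of K and 2.71% of CK. Unthinned, the shares were 6.28%, 2.52%, 7.36% and 4.17%.

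Likeness of pattern was measured by Pearson's r of log2(CPM + 10) over 21 sums of a library and stage with 20 or more cells, among genes with 200 or more UMIs. These points share libraries and stages, so r is a description. The minimum was set for the genes compared, and Egr2 and Ebi3 themselves fell below it, so their r values rest on sparse sums. Myc was most like Egr3 (r 0.937), then Ier2 (0.934), an immediate early gene, and Tagap (0.909). Egr3 was most like Bhlhe40 (0.971), Ier2 (0.968) and Ifi47 (0.967). Il4i1 was most like Dusp2 (0.965), a phosphatase induced by receptor signals, Bcl2a1b (0.944) and Samsn1 (0.942), and Egr2 came nearest to Ephx1 (0.936), Casp4 (0.919) and Il4i1 (0.911). Batf was most like Plscr1 (0.854), Orai1 (0.835) and Bcl2a1b (0.831), and Ebi3 like Heg1 (0.867), the NF-kB subunit gene Relb (0.848) and Bcl2a1d (0.837). Counts of Bcl2a1b and Bcl2a1d, near-identical copies, can be split between them. For Irf4, r was 0.972 with Ahr and 0.962 with Sub1. Basp1 had the GC genes Mef2b (0.983), which encodes a transcription factor of GC B cells, and S1pr2 (0.980), the receptor that keeps cells in the follicle center, with Slc22a15 (0.980) as its nearest genes, and r of -0.934 with Irf4, -0.817 with Egr3 and -0.706 with Myc.

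The same lists were set against genotype in centrocytes. Of all genes past the count minimum, 5.71% were called higher and 5.82% lower in C. The shares were 4.60% and 22.6% in K, and 7.17% and 5.66% in CK. In K over WT the list of the Myc network and biosynthesis targets had a median log2 ratio of 0.36, beside -0.14 over all genes, with 3 of 21 genes called higher (Srm, Ccnd2 and Slc7a5) and 1 lower (Mnt, a Myc antagonist). In C the median was -0.05, beside 0.02 over all genes, with 1 of 20 called higher and 2 lower. In CK it was 0.15, beside 0.04, with 1 of 21 higher and 2 lower. Srm, the spermidine synthase, was called higher in the 3 mutants, at 25.1 CPM (WT), 43.5 (C), 49.1 (K) and 50.9 (CK), and had the highest ratio of the list in CK (1.02, 0.53 to 1.53). Odc1, the rate-limiting enzyme of polyamine synthesis, had the lowest (-0.69, -1.02 to -0.36), at 88.6 CPM (WT, 162 UMIs), 53.1 (C) and 110.3 (K), with 149 UMIs in CK. List values by genotype, here and below, are for annotated centrocytes alone. With cells above the gene limit added, Myc itself went from 0.98 to 0.11 in K and from 0.54 to -0.46 in CK. The lists are not given with those cells.

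The immediate early list had a median of 0.14 (C), 0.17 (K) and 0.11 (CK), beside 0.02, -0.14 and 0.04 over all genes. Its gene Nr4a1, an orphan nuclear receptor induced by the B cell receptor, was called lower in the 3 mutants, at 13.1 CPM (WT, 24 UMIs), 2.65 (C), 5.99 (K) and 3.69 (CK, 10 UMIs, log2 ratio -1.83, -3.06 to -0.71). Fos had the highest ratio in CK, on 14 and 6 UMIs (0.66, -0.81 to 2.32). Beside the 22.6% of all genes called lower in K, the CD40 and NF-kB list had 2 of 15 lower there, and 0 in C and CK. It had medians of 0.12 (C), -0.02 (K) and 0.02 (CK), with 0, 0 and 1 of 15 genes called higher. Its extremes in CK were Bcl2l1 (0.79, -0.07 to 1.72), which encodes a survival protein, and the costimulatory ligand gene Cd86 (-0.32, -0.56 to -0.08). Among partners and opposing factors of Batf and Irf4 none of 7 was called in any mutant, and in CK Irf8 was lowest (-0.28, -0.41 to -0.14) and Jund highest (-0.08, -0.18 to 0.01). Among cytokine receptors and Stat factors, 0 of 8 genes were called in C and CK and 1 in K, Il2rg, the common gamma chain, which in CK was also lowest (-0.40, -0.66 to -0.14), with Stat6 highest (0.39, -0.23 to 1.03).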

How the data were processed

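Members and gene lists were chosen with earlier results of these data known. The authors counted UMIs per gene with Cell Ranger, version 3.0 per the submitters' processing notes and 3.0.2 per the file headers, on mm10. The deposited matrices hold raw counts of 3′ ends, so levels were not divided by gene length. The deposited cell table gives, per the file headers, UMI and gene counts, the percent of mitochondrial UMIs, module scores, stage names made by the authors in Seurat 4.0, and a rank along their slingshot pseudotime.

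Counts were summed per library and stage and scaled to a total of 1000000 UMIs (CPM). Intervals were exact Poisson for sums, Clopper-Pearson for shares and conditional binomial for ratios. Ratios over WT used genes with 20 or more UMIs over both libraries, and in the medians over all genes a count of 0 was set to 3. T-like cells had less than 8% mitochondrial UMIs, at least 2 of 3 Cd3 genes and at most 1 UMI of the B markers. Cells above 2500 genes took the label of their 25 nearest cells over 50 principal components of 2000 variable genes in scanpy 1.11.5. This procedure returned the own label of 85.0% of annotated cells. By stage the share ran from 93.0% of transitioning cells to 66.2% of early centroblasts, 54.3% of prememory cells and 13.6% of recycling cells. Doublets were left in the main values. Scrublet, at a score of 0.2, called 3.80% to 4.78% of barcodes and 1.71% to 4.02% of annotated cells. Pseudotime ranks were put on one scale by the number of WT cells before a cell.

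Named genes were the 8 members, the 3 genes most like each by Pearson's r, and the genes with the highest and lowest ratio of CK over WT in centrocytes from each pathway list. One gene that this rule names is not reported here. Positions come from GENCODE vM21 and upstream windows from RefSeq, both on GRCm38. The ratio and its interval were tested on simulated counts. Other versions were numpy 2.4.6, pandas 2.3.3, scipy 1.17.1, scikit-learn 1.9.0 and matplotlib 3.10.9.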

Additional observations from a re-analysis of the deposited data

Results flagged for a closer look

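For 2 genes the ratio over WT had opposite signs in 2 stages of the same libraries, with both counting intervals leaving out 0. With 1 mouse per genotype these differences were not tested.

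Il4i1 was lower than WT in transitioning cells, at a log2 ratio of -0.57 in K (-0.97 to -0.16) and -0.77 in CK (-1.17 to -0.36). It was higher in the other stages listed here, so that the log2 ratio in transitioning cells was passed by 1.58 in centroblasts, 3.38 in recycling cells and 1.55 in prememory cells of K. In CK it was passed by 1.71 in centroblasts, 0.95 in centrocytes, 3.73 in recycling cells and 1.52 in prememory cells. The values of recycling cells rest on 2 Il4i1 UMIs in WT, and prememory cells thinned to 2000 UMIs held 509 CPM (CK, 385 to 659) and 493 CPM (WT, 413 to 583). In prememory cells of K, 39 of the 268 UMIs came from 1 cell. Transitioning cells above the gene limit ran the other way, at 20.3 CPM in WT, 31.7 in K and 45.4 in CK.

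Basp1 was higher than WT in centroblasts, at 0.22 in K (0.09 to 0.36) and 0.33 in CK (0.20 to 0.46), and lower in 3 other stages. In K the ratio in centroblasts exceeded that in early centroblasts by 0.45, in transitioning cells by 0.47 and in centrocytes by 0.55. In CK the differences were 0.81, 0.50 and 0.55. Centroblasts above the gene limit ran the other way, at 738 CPM in WT, 582 in K and 602 in CK. The part of the gene limit in either pattern was not tested.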

How the results depend on the processing

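The 6 median log2 ratios of the members were recomputed under 9 or 10 settings each, and 53 of 57 values stayed within the counting interval of the main value. Once cells above the gene limit were included, the median of CK over WT in centrocytes was -0.17, and the ratio of Batf turned to -0.14. In annotated GC B cells, weighting stages by WT shares gave -0.01 in K and 0.05 in CK, and the summed UMIs gave -0.17 in CK. The sum without Basp1 and Il4i1 was chosen after seeing the data. Of 144 recomputed ratios of single members in centrocytes, 12 beside that of Batf moved beyond their interval. Among these, Myc in CK also changed sign, to -0.46 with those cells, as did Basp1 in K relative to T-like cells (0.20). Depth limits Egr2, Ebi3 and Irf4 most, with under 60 UMIs each in annotated WT cells. No paired analysis was possible because each genotype is 1 mouse.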
